A study of Mus musculus with 5 samples.

Results

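Igfbp6 and Igf1r are 2 of the 32285 genes counted in neutrophils of tumour-bearing and naive mice. They were matched by gene symbol, each to 1 row of the count tables. They were chosen by their UMI counts and their shares of positive cells, which differed between the libraries and between the hashtag populations, so the levels below are a description and carry no test. A UMI (unique molecular identifier) stands for 1 captured RNA molecule.

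Neutrophils had been sorted from bone marrow (BM), blood (PB) and lung of female wild type C57BL/6J mice, marked with hashtag antibodies and run on 10x version 3 chemistry. The AT3-gcsf mice carried tumours of the AT3-gcsf line, named for G-CSF, the AT3 mice carried tumours of AT3, a mouse mammary carcinoma line, and the naive mice carried no tumour. Ages, tumour stage, the construct behind AT3-gcsf and the number of mice pooled into a population are not given in the labels. Each condition filled 1 lane and gave 1 library with 3 hashtag populations, so condition and lane cannot be told apart and no spread between mice can be estimated. No label ties a hashtag to a tissue, and populations are named by hashtag only. The populations of a library came from the same lane and do not count as replicates. The same hashtag number in another library carries no known link.

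The AT3-gcsf library gave 10164 cells with 90162340 UMIs, the AT3 library 7615 cells with 52157630 UMIs and the naive library 7376 cells with 29587834 UMIs. The median cell held 7590.5 UMIs in AT3-gcsf, 4795 in AT3 and 2779 in naive. Medians of single populations ran from 6507 to 8627 in AT3-gcsf, from 3269.5 to 9738 in AT3 and from 2267 to 5400 in naive. All 14 neutrophil markers checked (S100a8, S100a9, Csf3r, Cxcr2 and others) reached 20 CPM in each of the 9 populations. Cells with markers of another type made up 0.413% of AT3-gcsf, 1.42% of AT3 and 4.39% of naive cells. Most of the naive ones, 207 of 324, met a monocyte or macrophage list. These carried S100a8 above the remaining naive cells, so they may be neutrophils. Cell barcodes called in more than 1 library numbered 20 for AT3-gcsf and AT3, 20 for AT3-gcsf and naive, and 44 for AT3 and naive. Intervals are 95% and exact (Clopper-Pearson for shares and Poisson for CPM), and they reflect counting error alone.

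Insulin-like growth factors act on cells through the receptor tyrosine kinase encoded by Igf1r, which signals through the Irs and Shc adaptors to the PI3K-Akt and Ras-MAPK pathways. Igfbp6 encodes a secreted binding protein that holds IGF-II with a higher affinity than IGF-I and thereby limits its access to the receptor. The transcripts thus stand for the receiving side of the pathway and for one of its secreted antagonists.

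Igfbp6 (ENSMUSG00000023046) lies on the plus strand at chr15:102144362-102149511 (mm10, GENCODE vM21), with 4 exons. Igf1r (ENSMUSG00000005533) lies on the plus strand at chr7:67952827-68233668, with 21 exons. Neither overlaps another annotated gene. The 250 bases before the RefSeq start of each gene (GRCm38.p6, plus strand) are shown because the transcripts differed in opposite directions between tumour-bearing and naive libraries. The windows are chr15:102143936-102144185 for Igfbp6 and chr7:67952007-67952256 for Igf1r. Both end upstream of the GENCODE gene starts given above, and motif positions below count back from the end of each window. Capitals mark a TATAAA match on the minus strand (read here as TTTATA) and GGGCGG matches on the plus strand.
Igfbp6: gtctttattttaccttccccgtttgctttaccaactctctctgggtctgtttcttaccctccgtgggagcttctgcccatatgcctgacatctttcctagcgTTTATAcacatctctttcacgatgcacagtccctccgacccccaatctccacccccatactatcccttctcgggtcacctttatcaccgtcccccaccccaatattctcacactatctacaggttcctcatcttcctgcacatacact
Igf1r: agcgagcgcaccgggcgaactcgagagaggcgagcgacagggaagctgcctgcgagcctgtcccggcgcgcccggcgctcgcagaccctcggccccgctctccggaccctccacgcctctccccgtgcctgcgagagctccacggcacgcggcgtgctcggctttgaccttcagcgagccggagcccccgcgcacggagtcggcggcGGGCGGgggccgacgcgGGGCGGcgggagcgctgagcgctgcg

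The windows differ in base composition. The Igfbp6 window held 49.6% G or C with 7 CG dinucleotides, and the Igf1r window 77.6% with 42, against a median of 52.4% G or C over 32851 mouse promoters of that length. Both strands were searched for 3 motifs, and their matches did not overlap in these windows. The first motif, TATAAA, is the core of the TATA box, GGGCGG is the GC box bound by Sp1, and TTCNNNGAA is the site form bound by STAT factors. The Igfbp6 window held 1 TATAAA match, at base -148 from the RefSeq start, and 12.4% of all promoters held at least 1. The Igf1r window held 2 GGGCGG matches, at bases -43 and -26, and 32.7% of all promoters held at least 1. TTCNNNGAA, present in 7.02% of promoters, matched neither window. A match describes the letters only.

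Igfbp6 was low in naive cells and far higher in both tumour-bearing libraries. Its level was 606 CPM (601 to 611) in the AT3-gcsf library, 397 CPM (392 to 402) in the AT3 library and 15.5 CPM (14.1 to 17.0) in the naive library, from 54610, 20706 and 458 UMIs. CPM are the UMIs of a gene per 1000000 UMIs of the summed cells. The mean cell held 5.37 Igfbp6 UMIs in AT3-gcsf, 2.72 in AT3 and 0.0621 in naive.

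By population, Igfbp6 was at 666 CPM (MHTO3), 672 CPM (MHTO4) and 512 CPM (MHTO5) in AT3-gcsf. In AT3 it was at 135 CPM (MHTO7), 514 CPM (MHTO8) and 705 CPM (MHTO10), and in naive at 34.7 CPM (MHTO3), 1.76 CPM (MHTO4) and 21.0 CPM (MHTO5). Every population of a tumour-bearing library was above every naive one, also the lowest, AT3 MHTO7. From the highest level down, AT3 MHTO10 led, AT3-gcsf MHTO4 and MHTO3 followed with overlapping intervals, and AT3 MHTO8 and AT3-gcsf MHTO5 came next, again with overlapping intervals. Then came AT3 MHTO7 (130 to 140 CPM), naive MHTO3 (30.5 to 39.2), naive MHTO5 (18.1 to 24.3) and naive MHTO4 (1.13 to 2.62), each apart from its neighbours. The intervals are too narrow for the naive populations, where few cells held many of the UMIs, so the order among these is uncertain.

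The order for Igf1r ran the other way. Igf1r was at 66.1 CPM (64.4 to 67.8) in the AT3-gcsf library, 115 CPM (113 to 118) in the AT3 library and 275 CPM (269 to 281) in the naive library, from 5958, 6022 and 8135 UMIs. By population it was at 82.9 CPM (MHTO3), 64.7 CPM (MHTO4) and 57.3 CPM (MHTO5) in AT3-gcsf, at 75.0 CPM (MHTO7), 104 CPM (MHTO8) and 223 CPM (MHTO10) in AT3, and at 507 CPM (MHTO3), 202 CPM (MHTO4) and 199 CPM (MHTO5) in naive. Naive MHTO3 stood above all others, and AT3 MHTO10 lay above naive MHTO4 and naive MHTO5, whose intervals overlapped each other. AT3 MHTO8, AT3-gcsf MHTO3, AT3 MHTO7, AT3-gcsf MHTO4 and AT3-gcsf MHTO5 followed in that order without overlapping intervals.

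**Figure D1:**
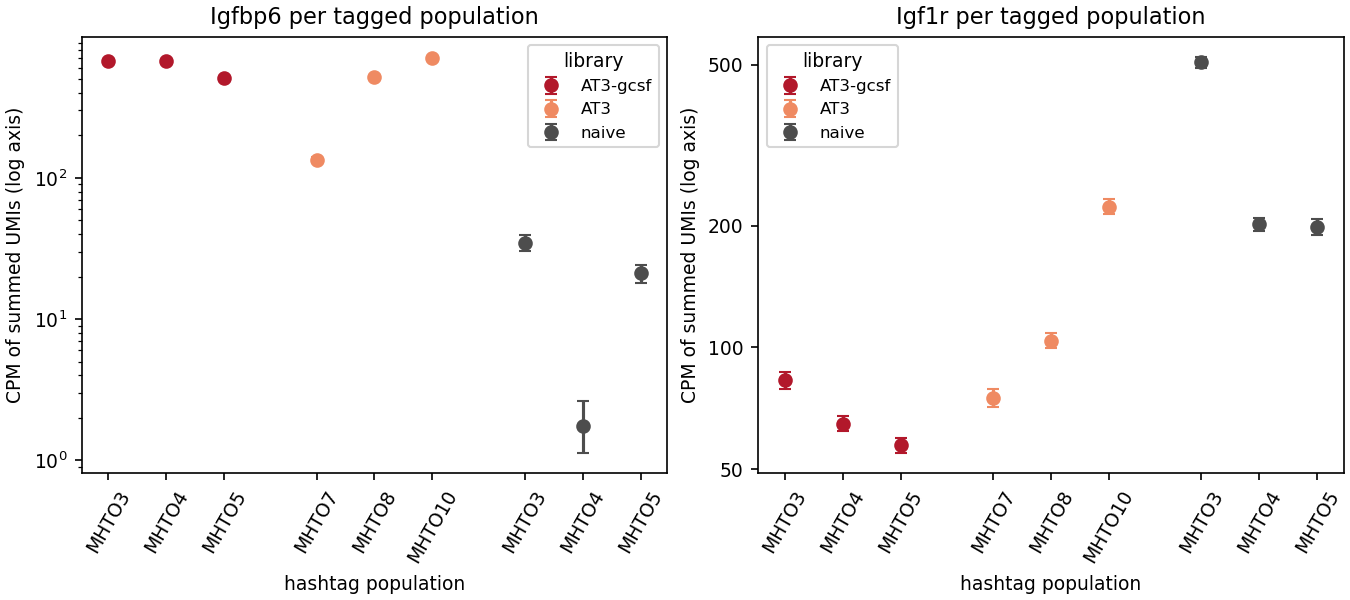
Igfbp6 (left) and Igf1r (right) in CPM of summed UMIs on log axes, 1 point per hashtag population, coloured by library, with exact Poisson intervals. Igfbp6 is at 512 to 672 CPM in AT3-gcsf, 135 to 705 CPM in AT3 and 1.76 to 34.7 CPM in naive populations, and Igf1r at 57.3 to 82.9, 75.0 to 223 and 199 to 507 CPM in the same order.

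CPM divides by all RNA of a cell, and cells of the 3 libraries differed in total UMIs. Counted per cell, Igf1r was at 0.629, 0.576 and 0.563 UMIs in AT3-gcsf MHTO3, MHTO4 and MHTO5, at 0.801, 0.699 and 0.894 UMIs in AT3 MHTO7, MHTO8 and MHTO10, and at 1.28, 1.29 and 0.729 UMIs in naive MHTO3, MHTO4 and MHTO5. On this scale naive MHTO5 fell inside the range of the AT3 populations, while all AT3-gcsf populations remained below all naive ones. The log2 ratio of Igf1r UMIs per cell was -0.91 for AT3-gcsf over naive and -0.48 for AT3 over naive, both closer to 0 than on the CPM scale below. Igfbp6 went further apart per cell, with log2 ratios of 6.44 for AT3-gcsf over naive, 0.98 for AT3-gcsf over AT3 and 5.45 for AT3 over naive. UMIs per cell are not corrected for the depth of a library, which was highest in AT3-gcsf and lowest in naive. The part of depth in the per-cell ratios was not tested.

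Igfbp6 was found in most unthinned cells of both tumour-bearing libraries, though not of AT3 MHTO7 (47.7%). Before any correction for depth, 93.8% of AT3-gcsf cells (93.3 to 94.3), 70.8% of AT3 cells (69.7 to 71.8) and 3.80% of naive cells (3.37 to 4.26) held an Igfbp6 UMI. In AT3-gcsf 41.6% of cells held 6 or more Igfbp6 UMIs, against 16.3% in AT3 and 0.136% in naive. With each cell thinned to 1000 UMIs, which left out 60 AT3-gcsf, 47 AT3 and 194 naive cells, the shares were 48.8% (47.8 to 49.8), 39.1% (38.0 to 40.2) and 1.91% (1.60 to 2.25). The order of the 3 libraries was thus the same at equal depth, where Igfbp6 was found in a minority of cells of each library.

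Within AT3, thinned shares of cells with Igfbp6 were 17.3% in MHTO7, 44.1% in MHTO8 and 50.1% in MHTO10. In AT3-gcsf they were 50.2% in MHTO3, 54.0% in MHTO4 and 42.6% in MHTO5, and in naive 3.10% in MHTO3, 0.383% in MHTO4 and 1.85% in MHTO5. AT3 MHTO7 thus stood apart from the other populations of tumour-bearing mice, with 52.3% of its unthinned cells at 0 Igfbp6 UMIs, although its cells were the deepest of all populations.

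Igf1r was found in a minority of cells at equal depth in all libraries. Thinned shares of cells with an Igf1r UMI were 8.29% (7.76 to 8.85) in AT3-gcsf, 15.0% (14.2 to 15.8) in AT3 and 28.1% (27.1 to 29.2) in naive, against unthinned shares of 40.5%, 49.0% and 58.9%. By population the thinned shares were 9.80%, 8.70% and 6.75% in AT3-gcsf MHTO3, MHTO4 and MHTO5, 10.3%, 10.9% and 23.6% in AT3 MHTO7, MHTO8 and MHTO10, and 40.6%, 20.3% and 20.3% in naive MHTO3, MHTO4 and MHTO5. The interval of AT3 MHTO10 (22.0 to 25.3) overlapped those of naive MHTO4 (18.6 to 22.1) and naive MHTO5 (18.7 to 22.0) in this measure, unlike in CPM.

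**Figure D2:**
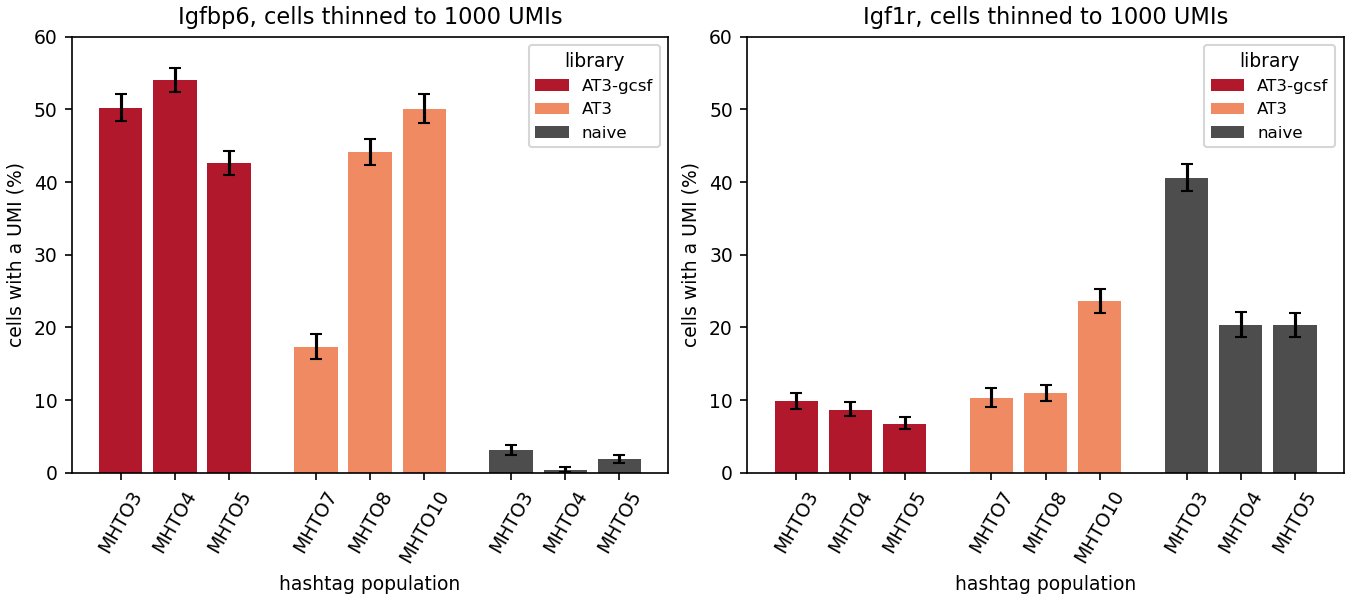
Share of cells with at least 1 UMI of Igfbp6 (left) and Igf1r (right) after each cell was thinned to 1000 UMIs, as bars per hashtag population with exact binomial intervals. The Igfbp6 share is 42.6% to 54.0% in AT3-gcsf, 17.3% to 50.1% in AT3 and 0.383% to 3.10% in naive populations.

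**Figure D3:**
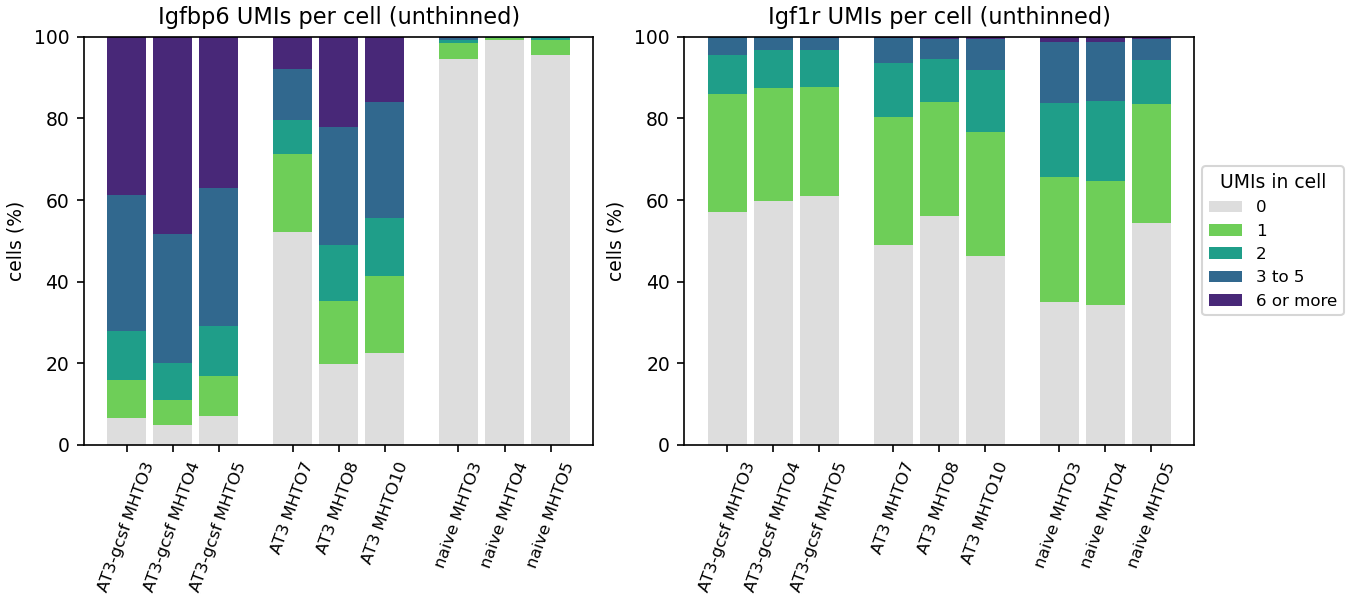
Stacked bars of the share of cells (percent) that hold 0, 1, 2, 3 to 5, or 6 or more UMIs of Igfbp6 (left) and Igf1r (right), unthinned, per hashtag population. Nearly all naive cells hold 0 Igfbp6 UMIs, while 41.6% of AT3-gcsf cells and 16.3% of AT3 cells hold 6 or more.

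The design gives 3 comparisons of libraries. Each used log2 ratios of (CPM + 5) over genes at 20 CPM or more in the higher library, with 2-fold as the mark of a difference and no test. These comparisons share libraries, and their values are given side by side. For Igfbp6 the log2 ratio was 4.90 for AT3-gcsf over naive, 0.60 for AT3-gcsf over AT3 and 4.29 for AT3 over naive. It was the fifth highest of 4342 genes in AT3-gcsf over naive and the second highest of 4236 in AT3 over naive. In CPM alone Igfbp6 was 39.1-fold higher in AT3-gcsf than in naive cells and 25.6-fold higher in AT3 than in naive cells. Among all genes compared, 178 of 4342 (4.10%) were at least 2-fold higher in AT3-gcsf than in naive, 69 of 3669 (1.88%) in AT3-gcsf than in AT3, and 73 of 4236 (1.72%) in AT3 than in naive. Igfbp6 was among the genes higher over naive in both comparisons and was not past 2-fold in AT3-gcsf over AT3. Its rank chose it, so nothing is read from these shares.

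The size of the Igfbp6 ratios depended on single populations. Without naive MHTO4, where it was lowest, they were 4.25 for AT3-gcsf over naive and 3.64 for AT3 over naive. The AT3-gcsf over AT3 ratio was 0.071 without AT3 MHTO7, and this population thus set most of that difference. All 3 AT3-gcsf and all 3 AT3 populations were above all 3 naive ones, as 332 genes (7.65%) were for AT3-gcsf and 93 (2.20%) for AT3. The AT3-gcsf and AT3 populations overlapped each other, while 11.0% of 3669 genes had all 3 AT3-gcsf populations above all 3 AT3 ones.

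For Igf1r the log2 ratio was -1.98 for AT3-gcsf over naive, -0.76 for AT3-gcsf over AT3 and -1.22 for AT3 over naive. It stood 135th from the lowest of 4342 genes in AT3-gcsf over naive and 133rd of 4236 in AT3 over naive. Lower by at least 2-fold were 927 genes (21.3%) in AT3-gcsf over naive, 125 (3.41%) in AT3-gcsf over AT3 and 274 (6.47%) in AT3 over naive. All 3 AT3-gcsf populations were below all 3 naive ones, as were 33.3% of all genes compared. The AT3 populations overlapped the naive ones through AT3 MHTO10, whereas 17.8% of genes had all 3 AT3 populations below. The AT3-gcsf populations overlapped the AT3 ones, and 9.40% of genes had all 3 below.

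Most genes were lower in CPM in the tumour-bearing libraries, with a median log2 ratio over all genes of -0.44 for AT3-gcsf over naive, -0.04 for AT3-gcsf over AT3 and -0.38 for AT3 over naive. Relative to that median, Igf1r stood at -1.54, -0.72 and -0.84, and Igfbp6 at 5.33, 0.65 and 4.67. Under TMM scaling the median was 0.46, 0.24 and 0.19. The genes higher and lower by 2-fold then numbered 747 and 181 for AT3-gcsf over naive, 134 and 68 for AT3-gcsf over AT3, and 194 and 43 for AT3 over naive. Igf1r kept its sign but came to -1.12, -0.48 and -0.64, so that its AT3 over naive difference was no longer past 2-fold.

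That AT3 over naive difference of Igf1r was also under 2-fold without naive MHTO3 (log2 ratio -0.77) and without AT3 MHTO7 (-0.92). Conversely the AT3-gcsf over AT3 ratio was past 2-fold without AT3 MHTO7, at -1.06. The AT3-gcsf over naive difference stayed past 2-fold without each population in turn, from -2.27 to -1.53.

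**Figure D4:**
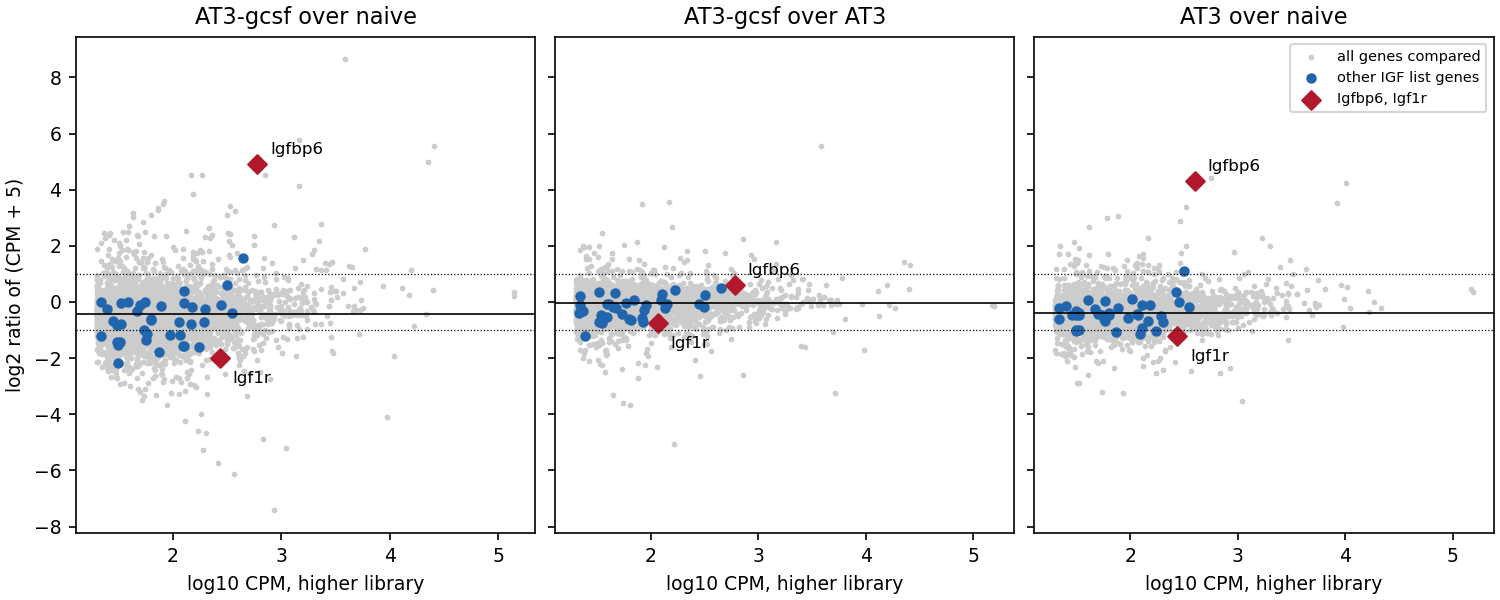
Log2 ratio of (CPM + 5) for each gene compared, against the log10 CPM in its higher library, for AT3-gcsf over naive, AT3-gcsf over AT3 and AT3 over naive. Grey points are all genes compared, blue points the other genes of the IGF list, red diamonds Igfbp6 and Igf1r, dotted lines 2-fold and the solid line the median; Igfbp6 stands at 4.90, 0.60 and 4.29 and Igf1r at -1.98, -0.76 and -1.22.

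Because depth differed so much, cells of 2000 to 5000 UMIs were also taken alone, a choice made after the data were seen. They held 2449 AT3-gcsf, 3705 AT3 and 4409 naive cells with medians of 3930, 3398 and 2757 UMIs. In these cells Igfbp6 was at 1337 CPM in AT3-gcsf, 982 CPM in AT3 and 20.8 CPM in naive. AT3 MHTO7 was then no longer apart, at 960 CPM beside 1010 CPM in MHTO8 and 962 CPM in MHTO10. Only 18.7% of its cells fell in this depth range, against 48.1% in MHTO8 and 72.7% in MHTO10. The depth range thus also changed which MHTO7 cells were compared. In thinned cells MHTO7 stayed apart, with Igfbp6 in 17.3% of cells against 44.1% in MHTO8 and 50.1% in MHTO10. The part of depth in its lower level was not tested. In the cells of 2000 to 5000 UMIs, Igf1r was at 159 CPM in AT3-gcsf, 228 CPM in AT3 and 339 CPM in naive. The Igf1r log2 ratios shrank to -1.07 for AT3-gcsf over naive and -0.56 for AT3 over naive, and the AT3 populations (162 to 287 CPM) overlapped the naive ones (223 to 485 CPM).

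Cells were next ordered, inside each population, by the share of their UMIs in 10 genes of secondary granules (Camp, Ltf, Ngp, Lcn2 and others), which are high in immature neutrophils, and divided into 4 ranges of equal size. A range is a slice of a continuous share and not a cell type, and between 278 and 863 cells of a population lay within 10% of a limit. Total UMIs differed between ranges, with a median of 17200 per cell in the highest range of AT3 MHTO7 against 4367 in its lowest. The ranges between had medians of 7793.5 and 12032 UMIs. Only the lowest range of AT3 MHTO7 thus had a median within 2000 to 5000 UMIs. In AT3 MHTO7, Igfbp6 was at 715, 213, 42.3 and 11.7 CPM from the lowest granule share to the highest. Per cell these are 3.34, 1.68, 0.519 and 0.210 UMIs, so Igfbp6 was lower along the ranges on both scales. The part of depth in this was not tested. The most granule-rich AT3 MHTO7 cells were below the naive MHTO3 and MHTO5 averages in CPM. Per cell they were above them, at 0.210 UMIs against 0.0874 in naive MHTO3 and 0.0772 in naive MHTO5, so this order depended on the scale.

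In AT3-gcsf MHTO4 the same 4 ranges gave 1368, 1047, 685 and 295 CPM of Igfbp6, but 6.20, 6.76, 6.50 and 4.46 UMIs per cell. The highest range of this population thus held fewer Igfbp6 molecules per cell than the others, by a smaller factor than in CPM. In naive MHTO4, the most granule-rich naive population, the values were 8.20, 1.24, 0.788 and 0.368 CPM, from 16, 3, 3 and 2 UMIs. Igfbp6 CPM was lower in the highest than in the lowest range in each of the 9 populations. In naive MHTO5 it was at 27.7, 15.3, 16.9 and 21.7 CPM, with no steady decline. There the intervals of the lowest (21.7 to 34.9) and highest range (16.1 to 28.6) overlapped.

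For Igf1r the CPM was also lower in the highest range of each population, though only slightly in naive MHTO5 (172 against 176 CPM), yet its UMIs per cell differed less. AT3-gcsf MHTO4 gave 153, 81.2, 59.3 and 34.8 CPM but 0.691, 0.525, 0.563 and 0.526 UMIs per cell. AT3 MHTO7 gave 175, 80.8, 64.2 and 53.9 CPM and 0.815, 0.635, 0.789 and 0.964 UMIs per cell. In naive MHTO4 the Igf1r UMIs per cell were higher in the granule-rich ranges, at 1.03, 1.07, 1.51 and 1.54. Depth moves with the range in these populations, and its part in the CPM trend was not tested.

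**Figure D5:**
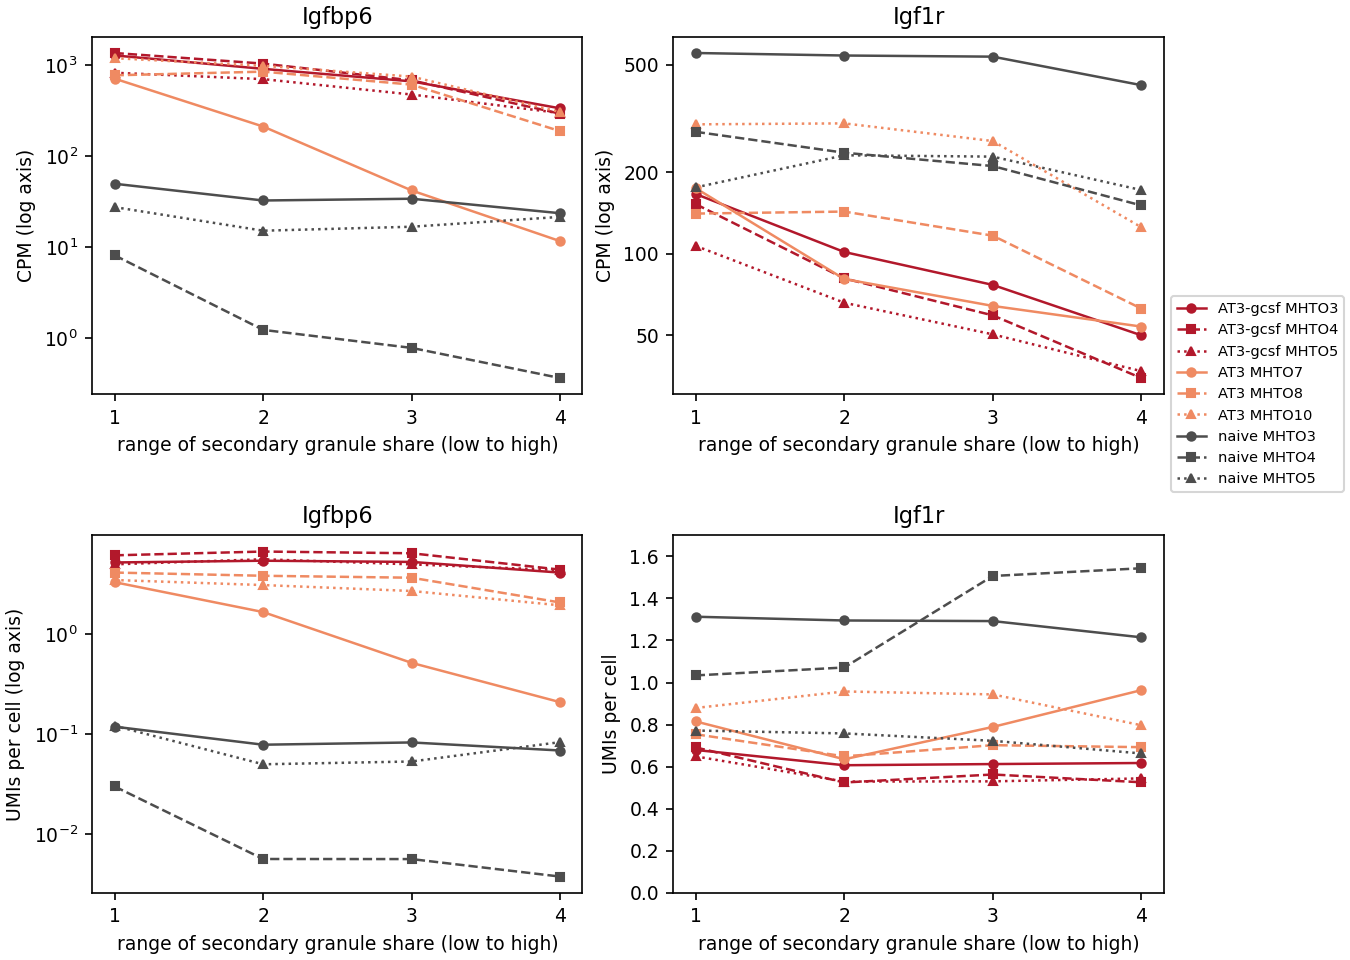
Igfbp6 (left) and Igf1r (right) in 4 equal ranges of the secondary granule share inside each hashtag population, in CPM (top, log axes) and in UMIs per cell (bottom; log axis for Igfbp6, linear for Igf1r). Igfbp6 in AT3 MHTO7 goes from 715 to 11.7 CPM and from 3.34 to 0.210 UMIs per cell, while Igf1r UMIs per cell in AT3-gcsf MHTO4 lie between 0.525 and 0.691.

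The same was done with 11 genes of activated neutrophils (Cxcl2, Ccl3, Il1a, Nfkbia and others). In AT3 MHTO8 Igfbp6 was at 267, 506, 725 and 841 CPM from the lowest activated share to the highest, and between 2.75 and 3.999 UMIs per cell, lowest in the first range. In AT3-gcsf MHTO5 it was at 367, 456, 616 and 726 CPM and 4.53, 5.06, 5.54 and 5.01 UMIs per cell. In AT3 MHTO7 the UMIs per cell were 1.07, 0.873, 1.46 and 2.34, so the spread along this share differed between populations. Only naive MHTO5 had less Igfbp6 CPM in its most activated range than in its least. It was at 27.3, 16.8, 19.5 and 17.7 CPM, with overlapping intervals at the ends (21.6 to 34.0 and 12.1 to 25.0). Igf1r in AT3 MHTO8 was at 78.0, 103, 123 and 142 CPM, but at 0.804, 0.694, 0.677 and 0.621 UMIs per cell, so its direction depended on the scale. Median UMIs per cell were lower in the most than in the least activated range of each of the 9 populations, though only slightly in naive MHTO5 (2774 against 2848).

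Whether both transcripts lay in the same cells was looked at in thinned cells. In AT3 MHTO7, Igf1r was found in 18.6% of cells with Igfbp6 (14.6 to 23.1) and 8.54% of cells without it (7.23 to 10.0). The shares were 13.7% with and 8.77% without in AT3 MHTO8, and 26.0% with and 21.2% without in AT3 MHTO10. In AT3-gcsf they were 11.1% with and 8.54% without in MHTO3, 9.64% with and 7.59% without in MHTO4, and 7.34% with and 6.30% without in MHTO5, and in these populations the intervals overlapped. Inside the AT3 populations the transcripts were thus found together somewhat more often, opposite to the order between libraries. In each AT3 population the CPM of both genes was also lower in the highest granule range than in the lowest. The part of this in the shares was not tested. In naive populations, with 86, 8 and 43 thinned cells holding Igfbp6, the intervals overlapped.

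The 458 Igfbp6 UMIs of naive cells lay in 280 of 7376 cells. The 73 cells with the most held 54.8% of them, and 1 cell of naive MHTO5, with fibroblast or mesothelium markers, held 25. The Poisson intervals treat UMIs as independent and are too narrow for counts gathered in so few cells. In naive MHTO3, 45 cells held 2 or more Igfbp6 UMIs. These cells had 10923 CPM of Wfdc17, a secreted protein of the WAP domain family, and 10271 CPM of Ifitm1, an interferon-inducible membrane protein. In the 2695 naive MHTO3 cells without Igfbp6 those levels were 1002 and 1234 CPM. Of the 45 cells 1 carried a barcode also called in another library, and none carried markers of another cell type. The 21 such cells of naive MHTO5 had 224 CPM of Wfdc17 from 66 UMIs. The 2290 cells of that population without Igfbp6 had 654 CPM from 5329 UMIs. Of the 21 cells 3 had a shared barcode and 4 markers of another type. Their median was 2856 UMIs, but a few deep cells can set their summed CPM, so no direction is read from it. In naive MHTO4 the 4 such cells had 1992 CPM of Wfdc17 from 17 UMIs, beside 86.1 CPM in cells without Igfbp6. In the naive library as a whole, 34 of 458 Igfbp6 UMIs (7.42%) lay in barcodes called in more than 1 library, against 0.383% in AT3-gcsf and 0.947% in AT3, and their part in the naive level was not tested.

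Free RNA can give UMIs to cells that do not make a transcript, so cells with markers of other types were set beside the rest. Cells with monocyte or macrophage markers, 14 of 42 set aside in AT3-gcsf, 51 of 108 in AT3 and 207 of 324 in naive, also carried the neutrophil gene S100a8 at 121994, 171298 and 167800 CPM, near or above the remaining cells (140545, 152536 and 109444 CPM). The monocyte or macrophage list holds Chil3, which is also in the secondary granule list, so these cells may be neutrophils. Cells with endothelium markers had 1205, 2155 and 1608 CPM of S100a8. In AT3-gcsf Igfbp6 was at 68.2 CPM in 42 such cells (median 16857.5 UMIs) and 611 CPM in the remaining cells (median 7579). In AT3 it was at 183 CPM in 108 such cells (median 17255.5) and 407 CPM in the remaining cells (median 4748), and 252 of these 415 UMIs sat in 2 cells with fibroblast or mesothelium markers. The AT3 level was 23.3 CPM in 19 cells with endothelium markers and 26.4 CPM in 51 with monocyte or macrophage markers. The unthinned share of cells with Igfbp6 was 42.9% in other types and 94.0% in remaining AT3-gcsf cells, 28.7% and 71.4% in AT3, and 1.54% and 3.90% in naive.

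In naive, other types were at 14.6 CPM (median 10055.5 UMIs) and the remaining cells at 15.6 CPM (median 2726). Of the 55 UMIs of other types, 26 came from 2 of 8 cells with lung epithelium markers. A further 25 came from 1 of 2 cells with fibroblast or mesothelium markers. The 207 naive cells with monocyte or macrophage markers held 0 Igfbp6 UMIs, which allows up to 1.28 CPM and a share of up to 1.45% of such cells with a UMI, and sets no limit on cells that express the gene. Igf1r in other types and in the remaining cells was at 61.8 and 66.1 CPM in AT3-gcsf, 85.4 and 117 CPM in AT3, and 109 and 299 CPM in naive, so the gap was widest in naive. Without the cells of other types the Igf1r log2 ratio was -2.10 for AT3-gcsf over naive and -1.32 for AT3 over naive.

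Of the pathway around both genes, 74 other genes were looked at by role. No ligand reached 20 CPM in a library. Igf1 was at 0.0665 CPM in AT3-gcsf, 0.326 CPM in AT3 and 1.55 CPM in naive, and Igf2, Ins1 and Ins2 had between 0 and 8 UMIs per library. The proteases and inhibitors of binding proteins (Pappa, Pappa2, Stc1, Stc2 and Htra1) did not reach it either.

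Of the other binding proteins, only Igfbp7 reached 20 CPM, at 7.64 CPM in AT3-gcsf, 24.2 CPM in AT3 and 31.5 CPM in naive. Without the cells that carried markers of other types it was at 0.527, 2.25 and 19.7 CPM. Its log2 ratios were -1.53 for AT3-gcsf over naive and -1.21 for AT3-gcsf over AT3. Igfbp4 was at 2.75, 6.63 and 14.4 CPM, Igfbp5 at 3.14, 5.23 and 5.31 CPM, Igfbp3 at 0.543, 0.575 and 1.15 CPM and Igfbp2 at 0.133, 0.307 and 0.338 CPM in AT3-gcsf, AT3 and naive. Igfals had 1, 3 and 0 UMIs in AT3-gcsf, AT3 and naive. Igfbp1 and Igfbpl1 had 0 UMIs, which allows up to 0.0333 CPM in AT3-gcsf, 0.0575 CPM in AT3 and 0.101 CPM in naive. Igfbp6 was thus the binding protein gene above 20 CPM in AT3-gcsf and, with Igfbp7, 1 of 2 in AT3.

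Of the related receptors only Insr could be compared, and only with naive. Insr, the insulin receptor, was at 9.21 CPM in AT3-gcsf, 14.1 CPM in AT3 and 33.1 CPM in naive, with a log2 ratio of -1.42 for AT3-gcsf over naive and one just under 2-fold (-0.996) for AT3 over naive. Igf2r, which carries IGF-II to lysosomes, was at 8.10, 8.70 and 19.3 CPM, under the 20 CPM limit. Insrr had 0 UMIs. Phb2, whose product is known as a cell surface partner of IGFBP-6 in human tumour cells, was nearly level at 33.1, 24.5 and 33.6 CPM in AT3-gcsf, AT3 and naive.

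Of the 74 genes of all roles, 38 could be compared with naive. In AT3-gcsf over naive 1 of the 38 was at least 2-fold higher and 13 lower, beside 4.10% higher and 21.3% lower over all genes, with a median log2 ratio of -0.69 against -0.44. The lower count over all genes was 927 and came to 181 under TMM scaling. The lower genes included the adaptors Irs2 (-1.23) and Crk (-1.18), the PI3-kinase subunits Pik3cb (-1.42), Pik3cd (-1.18), Pik3cg (-1.78) and Pik3r1 (-1.14), and the transcription factor Foxo3 (-1.36). The kinase Braf (-1.57), the lipid phosphatase Inpp5d (-1.57) and the ubiquitin ligases Cbl (-1.59) and Nedd4 (-2.16) were also among them, with Insr and Igfbp7 above. The gene on the higher side was Socs3, a feedback inhibitor of cytokine signalling, at 446 CPM in AT3-gcsf, 317 CPM in AT3 and 147 CPM in naive (1.57).

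In AT3 over naive 1 of 38 genes was at least 2-fold higher, again Socs3 (1.09), and 4 were lower, namely Pik3cg (-1.08), Braf (-1.13), Cbl (-1.03) and Nedd4 (-1.04), all close to the 2-fold mark, beside 1.72% higher and 6.47% lower over all genes. The median was -0.45 against -0.38. In AT3-gcsf over AT3 none of 33 was higher and 1, Igfbp7, was lower, beside 1.88% and 3.41% over all genes, with a median of -0.18 against -0.04. Socs3 populations of all 3 libraries overlapped, from 266 to 604 CPM in AT3-gcsf, 124 to 698 CPM in AT3 and 13.7 to 303 CPM in naive.

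Across the 9 populations, the genes most like Igfbp6 by Pearson's r on log2(CPM + 5), among 5286 genes, were Wfdc17 (0.986), Ifitm1, Fabp5, Nipsnap3b, H3f3a, Steap4, Selp and Wfdc18 (0.975). Wfdc17 was at 25571 CPM in AT3-gcsf, 10294 CPM in AT3 and 543 CPM in naive, and Steap4, a metalloreductase, at 340, 331 and 27.0 CPM. The range of these genes differed, since H3f3a, which encodes a histone H3 variant, went only between 3196 CPM in AT3-gcsf, 2945 CPM in AT3 and 2440 CPM in naive. For Igf1r they included Zfp236 (0.996), Kansl1, Ralgapb, Cep350, Fam193a, Rhbdf2 and Sp1 (0.991), with Sp1, a transcription factor, at 15.2, 24.3 and 39.3 CPM. The points share 3 libraries and their depths, so these values describe likeness of pattern only. Across thinned cells the mean Spearman values with Igfbp6 were weak. The 8 highest went from 0.253 to 0.161 in AT3-gcsf (Fau, Btg1, Il1b, Malat1, Tyrobp, Ftl1, Fxyd5 and Lst1) and from 0.325 to 0.236 in AT3 (Fau, Il1b, Malat1, Tyrobp, Gm2a, Rps27, Ifitm1 and Btg1), and nothing is read from them.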

How the data were processed

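Per the labels, sorted neutrophils were tagged with hashtag antibodies and about 24000 cells (8000 per tagged sample) were loaded per 10x lane. The deposited matrices gave unnormalised UMI counts for 32285 genes in called barcodes. Per the submitters' processing notes, the authors used bcl2fastq 2.20.0.422, Cell Ranger 4.0.0 and the mm10 build. The deposited hashtag files held raw counts per hashtag; no program is named for them.

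Hashtag files were matched to the library in which 94.1% to 97.4% of called barcodes had a dominant tag, against at most 0.672% in any other pairing. Cells were used when the top named tag held at least 80% of named-tag counts and at least 20 counts, with at least 200 genes and under 10% mitochondrial UMIs. This rule removes cells with 2 tags; doublets inside a tag were kept, and removal of those computed by Scrublet (scanpy 1.11.5, expected rate 8%) was an alternative. UMIs were summed per library and population and scaled to CPM. Log2 ratios added 5 CPM to both sums and used genes at 20 CPM or more in the higher one. No p-values were computed, since each condition had 1 library. Shares were compared after thinning each cell to 1000 UMIs. Cells were set aside as another type, in an alternative, when at least 3 markers of 1 list were present and made up 0.5% of their UMIs. TMM factors came from edgeR 4.0.16 in R 4.3.3; the rest was computed in Python 3.11.15.

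Igfbp6, Igf1r and the gene lists were chosen with earlier results of these data known. Also named were genes of the IGF list past 2-fold in any comparison, all other binding protein and receptor genes, the 8 genes most like each of the pair over the 9 populations (of which 1 is not reported here), and the 8 with the highest mean correlation with Igfbp6 across thinned cells of each tumour-bearing library. Promoter sequences came from RefSeq (GRCm38.p6) and gene positions from GENCODE vM21. Protein sequences were not used here.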

Additional observations from a re-analysis of the deposited data

How the results depend on the processing

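No ratio changed sign under any alternative. In the order AT3-gcsf over naive, AT3-gcsf over AT3 and AT3 over naive, Igfbp6 log2 ratios were 5.65, 0.90 and 4.75 under TMM scaling and 5.70, 0.44 and 5.26 in cells of 2000 to 5000 UMIs. Igf1r log2 ratios were -1.12, -0.48 and -0.64 under TMM scaling and -1.07, -0.51 and -0.56 in cells of 2000 to 5000 UMIs. Totals without the 20 most abundant genes gave Igfbp6 at 5.29 over naive for AT3-gcsf and 4.67 for AT3, and Igf1r at -1.75 and -0.99. A pseudocount of 1 CPM gave Igfbp6 at 5.20 and 4.59, and Igf1r at -2.04 for AT3-gcsf over naive. Without cells of other types Igf1r stood at -2.10 for AT3-gcsf and -1.32 for AT3 over naive. After thinning to 1000 UMIs, Igfbp6 stood at 4.61 for AT3 over naive and 0.28 for AT3-gcsf over AT3, and Igf1r at -1.05 and -0.93. With equal weights for populations, Igfbp6 stood at 4.69 for AT3-gcsf over naive and 0.45 for AT3-gcsf over AT3, and Igf1r at -2.07, -0.92 and, for AT3 over naive, -1.15. Leaving out 1 population at a time gave Igfbp6 from 4.25 to 5.41, 0.071 to 0.91 and 3.64 to 4.83, and Igf1r from -2.27 to -1.53, -1.06 to -0.41 and -1.57 to -0.77.

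Counts of genes past 2-fold moved more. Under TMM scaling the genes higher and lower were 747 and 181, 134 and 68, and 194 and 43. Without the 20 most abundant genes 304 were higher in AT3-gcsf over naive, 194 lower in AT3-gcsf over AT3 and 132 higher in AT3 over naive. In cells of 2000 to 5000 UMIs 636 were higher and 572 lower in AT3-gcsf over naive, 267 higher in AT3-gcsf over AT3 and 150 higher in AT3 over naive. Leaving out 1 population gave 59 to 186 higher (186 without AT3 MHTO8) and 93 to 308 lower (308 without AT3 MHTO7, 278 without AT3-gcsf MHTO5) for AT3-gcsf over AT3. For AT3 over naive it gave 61 to 216 higher (216 without naive MHTO5) and 273 to 728 lower (728 without naive MHTO4, 636 without AT3 MHTO8). The cause was not tested. Shares of cells with Igfbp6 were 67.7%, 52.8% and 2.79% in AT3-gcsf, AT3 and naive at 2000 UMIs, and 93.8%, 70.8% and 3.80% unthinned. Shares with Igf1r were 15.5%, 24.8% and 41.1% at 2000 UMIs, and 40.5%, 49.0% and 58.9% unthinned. No paired analysis was possible because hashtag numbers link no populations across libraries. With 1 library per condition, lane and condition cannot be told apart, and depth limits the naive Igfbp6 level, which rests on 458 UMIs.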
